A study of Homo sapiens with 5 samples.

Results

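The genes described here encode cell-surface adhesion proteins of 3 related groups: FLRT1, FLRT2 and FLRT3, LRFN2, LRFN4 and LRFN5, and the latrophilins ADGRL2 and ADGRL3. They are 8 of the 20001 genes with an identifier in the count table, and all 8 were found there by Ensembl identifier. FLRT2 and LRFN5 were chosen because they had the largest falls in the CAG line among genes that averaged 5 CPM or more (a scaled count, defined below), so their difference between the lines is a description and was not tested. The other 6 were taken as relatives or binding partners of these genes. Nascent RNA was measured by PRO-seq, a run-on assay that captures RNA at engaged polymerases, in HEK293T, a kidney line from a human embryo that expresses large T antigen of SV40. All libraries came from monoclonal cells with a landing pad, which is an engineered locus for integrating constructs. The pad held the CAG promoter, a strong synthetic promoter, in 3 libraries and the PGK promoter, from a gene of glycolysis, in 2 libraries. Cells with the same promoter are called a line below, and since the number of clones per line is not labelled, promoter and clone cannot be told apart.

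FLRT proteins span the membrane once and carry leucine-rich repeats on the outside of the cell, with which they bind latrophilins and the netrin receptors of the UNC5 family on neighbouring cells. Latrophilins are adhesion G protein-coupled receptors that also bind teneurins. LRFN proteins, also called SALMs, have a similar outer part with leucine-rich repeats and are best known at synapses, where LRFN4 and LRFN5 bind receptor phosphatases of the LAR family on the opposite cell. All 3 groups are known mainly from the developing nervous system, where they guide cell migration, axon growth and synapse formation.

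The sequences before the RefSeq starts of FLRT2, LRFN5 and FLRT3 are shown because FLRT2 and LRFN5 are the genes chosen for their fall and FLRT3 is the relative that was called different between the lines. Each stretch is the 30 bases directly before a start in GRCh38.p14, written 5′ to 3′, with CG dinucleotides in capitals. The counts were made on hg19, so these positions are not those of the count table. FLRT2 has 3 starts on the plus strand, at chr14:85530114-85530143, chr14:85533319-85533348 and chr14:85531362-85531391 in the order shown. The LRFN5 stretch is chr14:41606846-41606875 on the plus strand, and the FLRT3 stretch is chr20:14337613-14337642 on the minus strand.
FLRT2 start 1: atactgtctcaggctgggtaccttgtagtt
FLRT2 start 2: tacattagccCGgcCGCGtCGgattgaggc
FLRT2 start 3: ggggcttggggcctcctggaaagatccctc
LRFN5: ggctgagctcaCGgcCGCGCGccCGcCGcc
FLRT3: ctttaaacttcagacttggaggtgggctgt
The LRFN5 stretch holds 6 CG dinucleotides and the second FLRT2 stretch 4, and the stretches of FLRT3 and of the other FLRT2 starts hold 0.

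The wider promoter windows, 250 bases before to 50 bases after a start, were available for 7 of the 8 genes, with 18 windows in all. Of these 18 windows, 14 held more CG dinucleotides than the median of 14 over the 35116 windows of all genes in the table. ADGRL2 alone had 8 of the 18, with 4 to 34 CG dinucleotides, so counts over windows weigh that gene most. The LRFN5 window held 35 and the 3 FLRT2 windows held 19, 25 and 22. More were held by 12.7% of all windows in the case of LRFN5 and by 41.2%, 30.1% and 35.8% in the case of FLRT2, so the FLRT2 windows lay only moderately above the median. FLRT1, which had few counts in both lines, had windows with 52 and 26, and relatives that were not called different had 55 in LRFN4 and 30 and 21 in ADGRL3. The FLRT3 window held 4, and 70.4% of all windows held more. The letters TATAAA, read on both strands, were found in 1 of the 18 windows, against 11.5% of all windows. GGGCGG, which itself holds a CG, was found in 8 of the 18 windows, against 45.0% of all windows. Which of the starts is used in these cells was not measured.

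Library totals ran from 4873883 to 5864157 counts in the CAG line and were 5582070 and 3712105 counts in the PGK line. Of the 8 genes, 7 passed the filter on low counts and were tested with 13400 genes in all, and FLRT1 did not pass. Since no label ties replicates to separate cultures, p-values reflect the spread among these libraries alone, and it may be technical. Levels are CPM, counts scaled to the TMM-adjusted library size. They are compared between lines within a gene, because the counted length of each gene is not known. Only the likeness of profiles, given below, compares levels between genes. A gene was called at an adjusted p under 0.05 in edgeR's quasi-likelihood test, which 43.4% of all tested genes reached, 22.7% as rises and 20.7% as falls in CAG cells. The median log2 fold change of the 7 tested genes was -0.13, beside -0.0046 over all tested genes. The 7 include FLRT2 and LRFN5, whose place was fixed by the choice and which passed the filter through the PGK libraries alone. Of the 5 other tested genes, 1 was called, FLRT3. It was also the only one of these 5 whose libraries did not overlap between the lines, which held for 61.2% of all tested genes (CAG above PGK in 30.9%, below in 30.4%).

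FLRT2 (ENSG00000185070), which encodes a partner of latrophilins and a ligand of UNC5 receptors that repels neurons in mice, was almost silent in the CAG line and well transcribed in the PGK line. It had 2, 3 and 2 counts in the CAG libraries, against 179 and 108 counts in the PGK libraries. All 3 CAG libraries were at the edge of detection and both PGK libraries were far above it. The level was 0.446 ± 0.131 CPM over the CAG libraries (SD, n = 3) and 31.0 ± 1.03 CPM over the PGK libraries (SD, n = 2). In summed counts this is 7 against 287, a level 70.6-fold lower in the CAG line, with an exact 95% interval of 33.8-fold to 177-fold that covers counting error only. The residual level over the CAG libraries was 0.441 CPM, with an exact Poisson interval of 0.177 to 0.908 that reaches below 0.189 CPM, the level of 3 counts over these libraries. In bulk samples such as these, fewer transcribing cells and less RNA per cell cannot be told apart.

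LRFN5 (ENSG00000165379), the synaptic adhesion protein also named SALM5, showed the same arrangement at a lower count. It had 3, 1 and 0 counts in the CAG libraries, against 86 and 65 counts in the PGK libraries. Again the lines were fully apart, and 1 of the CAG libraries held no count at all. The level was 0.269 ± 0.311 CPM over the CAG libraries (SD, n = 3) and 16.7 ± 2.10 CPM over the PGK libraries (SD, n = 2). The summed counts were 4 and 151, a level 65.0-fold lower in the CAG line with an exact 95% interval of 24.9-fold to 242-fold for counting error. The intervals of FLRT2 and LRFN5 overlap, so counting error alone leaves their order unsettled. Among genes called lower with a mean of at least 5 CPM and no overlap between the lines, FLRT2 had the largest fitted fall (-6.06 on the log2 scale) and LRFN5 the next (-5.90), and the first gene outside the pair stood at -5.43.

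FLRT3 (ENSG00000125848), a paralogue of FLRT2 that binds latrophilins and, in frog embryos, acts in FGF receptor signalling, was transcribed in both lines and was higher in the CAG line. Its level was 49.3, 53.1 and 51.6 CPM in the CAG libraries, against 31.9 and 44.8 CPM in the PGK libraries. The lines did not overlap, but the PGK replicates lay far apart. The log2 fold change was 0.46 with a standard error of 0.12 (1.38-fold, edgeR adjusted p = 0.0024), and 27.6% of all tested genes had a larger change. The PGK replicates of FLRT3 differed by 0.49 on the log2 scale, and 10.3% of tested genes had a larger difference between them. Without PGK replicate 1, the log2 fold change was 0.19, and without PGK replicate 2 it was 0.69. The size of the rise, and with it the call, thus rests on PGK replicate 1.

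FLRT1 (ENSG00000126500), the other FLRT paralogue, was barely detected in either line. It had 3, 3 and 3 counts in the CAG libraries, against 1 and 0 counts in the PGK libraries. The ratio of levels, CAG over PGK, was 5.23 with an exact 95% counting interval of 0.724 to 229, which holds 1. With all genes with a count in the fit, its log2 fold change was 2.15 and did not pass (edgeR adjusted p = 0.23). No difference in FLRT1 was thus called at this depth, and its counts are too few to settle the size of one.

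**Figure D1:**
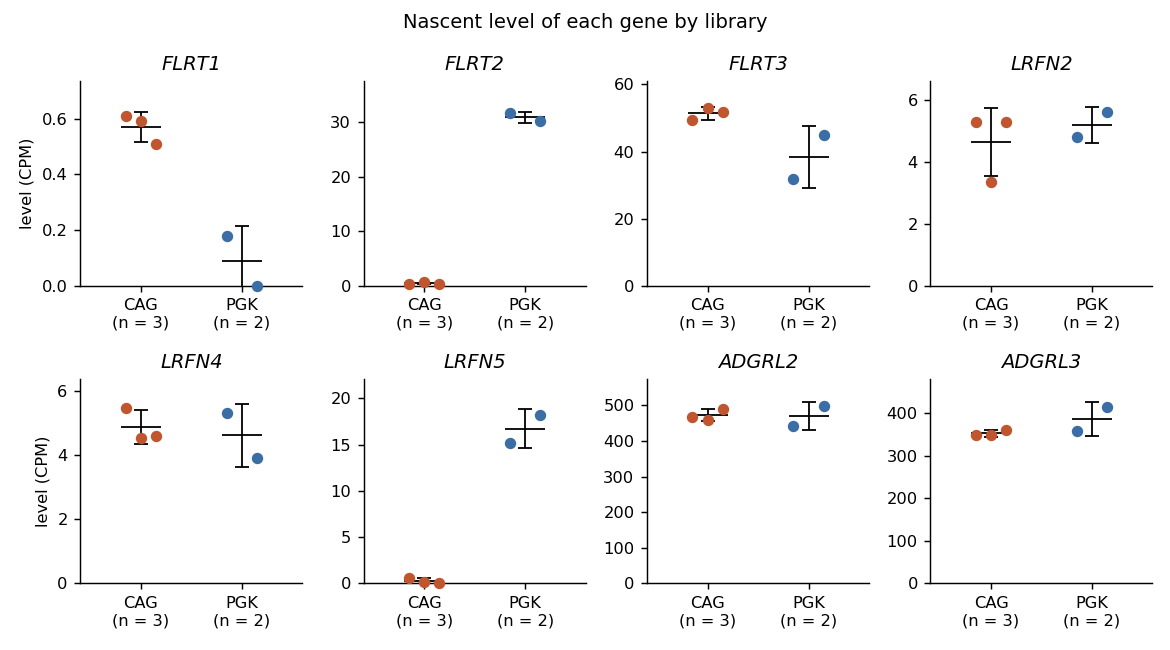
Level of each of the 8 genes (CPM, vertical axes, each from 0) for the 3 CAG and the 2 PGK libraries (points), with the mean and SD as black lines. FLRT2 and LRFN5 lie near 0 in all CAG libraries, against 30.2 to 31.7 CPM for FLRT2 and 15.2 to 18.2 CPM for LRFN5 in the PGK libraries.

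LRFN2 and LRFN4 did not share the fall of LRFN5, and no further member of the LRFN family was examined. LRFN2 (ENSG00000156564), or SALM1, which binds NMDA receptors and postsynaptic scaffold proteins, had 26, 17 and 31 counts in the CAG libraries, against 27 and 20 in the PGK libraries. Its level was 4.63 ± 1.11 CPM over the CAG libraries (SD, n = 3) and 5.19 ± 0.579 CPM over the PGK libraries (SD, n = 2), with overlapping libraries. The log2 fold change of -0.13 had a 95% interval of -0.72 to 0.46 and did not pass (edgeR adjusted p = 0.74). LRFN4 (ENSG00000173621), or SALM3, had 27, 23 and 27 counts in the CAG libraries, against 30 and 14 in the PGK libraries. Its level was 4.87 ± 0.531 CPM over the CAG libraries (SD, n = 3) and 4.61 ± 0.984 CPM over the PGK libraries (SD, n = 2), again with overlap. The log2 fold change of 0.03 had a 95% interval of -0.55 to 0.61 (edgeR adjusted p = 0.95). Both intervals are wide, because these genes had at most 31 counts in a library, but they exclude changes of the size seen for LRFN5.

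ADGRL2 and ADGRL3, the only latrophilins examined, were measured with far more counts and lay close together in the lines. ADGRL2 (ENSG00000117114) had levels of 466, 460 and 490 CPM in the CAG libraries, against 442 and 497 CPM in the PGK libraries, and the PGK libraries enclosed all CAG libraries. Its log2 fold change was 0.01 with a 95% interval of -0.15 to 0.17 (edgeR adjusted p = 0.94). ADGRL3 (ENSG00000150471), the receptor that FLRT3 binds at synapses, had 348, 348 and 361 CPM in the CAG libraries, against 359 and 414 CPM in the PGK libraries. PGK replicate 1 lay inside the range of the CAG libraries and PGK replicate 2 above it. The log2 fold change was -0.13 with a 95% interval of -0.30 to 0.03 (edgeR adjusted p = 0.19). Without PGK replicate 1 it was -0.24 and without PGK replicate 2 it was -0.025, so its size depends on which PGK library is kept. Each of these fits holds 1 PGK library, whose spread was taken to equal that among CAG libraries.

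**Figure D2:**
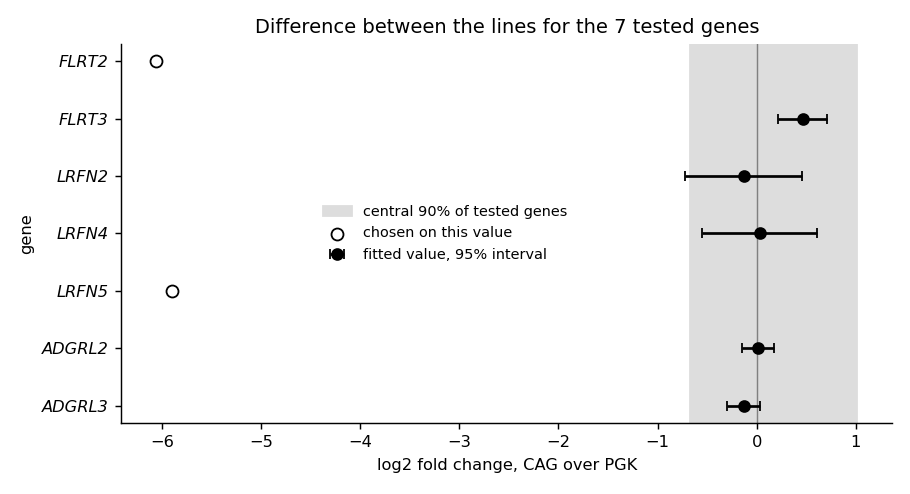
Log2 fold change, CAG over PGK (horizontal axis), of the 7 tested genes, with 95% intervals for the 5 genes that were not chosen on this value and open circles for the 2 that were. The grey band is the central 90% of all tested genes, -0.68 to 1.02. The 5 filled points lie inside it, and FLRT2 and LRFN5 lie at -6.06 and -5.90.

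The shares of genes in each group were read within single libraries, where no scaling between libraries enters. FLRT2 and LRFN5 were chosen on their difference between the lines. The gap in their shares follows from that choice and is no separate result. FLRT2 held 0.806%, 1.09% and 0.647% of the counts of the 3 FLRT genes in the CAG libraries, against 49.7% and 40.3% in the PGK libraries. LRFN5 held 5.36%, 2.44% and 0% of the counts of the 3 LRFN genes in the CAG libraries, against 60.1% and 65.7% in the PGK libraries. For the 0, the 58 counts of that library allow a share of up to 6.16% (exact 95% interval). These shares also reflect gene length and are compared only between libraries. The summed level of the FLRT genes was 50.4 to 54.3 CPM in the CAG libraries, against 63.7 and 75.0 CPM in the PGK libraries. That of LRFN2, LRFN4 and LRFN5 was 8.09 to 11.4 CPM in the CAG libraries, against 25.3 and 27.7 CPM in the PGK libraries. Unlike the shares, these sums are scaled between libraries. They include FLRT2 or LRFN5, so their gap between the lines also follows in large part from the choice. In the CAG libraries nearly all counts of the 3 FLRT genes thus fell on FLRT3. Nearly all counts of the 3 LRFN genes fell on LRFN2 and LRFN4.

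The balance of ADGRL2 and ADGRL3 differed little. ADGRL2 held 57.2%, 56.9% and 57.6% of the counts of ADGRL2 and ADGRL3 in the CAG libraries, against 55.2% and 54.6% in the PGK libraries. Every CAG library was above both PGK libraries, by 2.39 percentage points between the means (57.2% ± 0.350, n = 3, and 54.9% ± 0.425, n = 2). An exact two-sided permutation test, which doubles the smaller tail, gave p = 0.2. That is the smallest value this form of the test allows with 3 against 2 libraries, so it could not have called a difference.

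**Figure D3:**
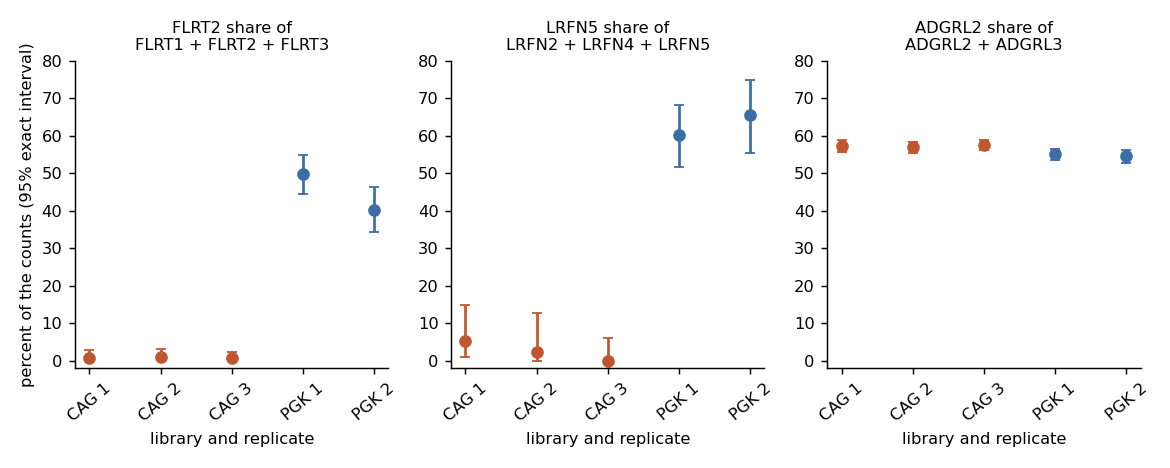
Share of a group's counts (percent, vertical axes) held by FLRT2, LRFN5 and ADGRL2 in each library, with exact 95% binomial intervals for counting error. FLRT2 and LRFN5, which were chosen on their difference between the lines, are at or below 5.36% in CAG libraries and at or above 40.3% in PGK libraries. The ADGRL2 share stays between 54.6% and 57.6%.

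The rows around each gene were read to see whether a gene moved with its surroundings. No source used here states the order of the rows, but the 8 genes stand in it in the order of their chromosomes and starts in RefSeq (GRCh38.p14). FLRT2 and LRFN5 both lie on chromosome 14, at rows 13359 and 13093, and ADGRL3 lies on chromosome 4. The 5 nearest tested rows on each side of the 8 genes held 80 other genes. In the CAG line 14 of them were called higher and 9 lower, together 28.8%, against 43.4% of all tested genes.

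Of the 10 tested genes nearest to FLRT2 none was called lower and 1 was called higher by edgeR (adjusted p under 0.05), with a median log2 fold change of -0.01. The gene directly before stood at -0.03 (edgeR adjusted p = 0.82). The gene directly after was higher in the CAG line, by 1.05 on the log2 scale (edgeR adjusted p = 0.0030), at a mean of 7.65 CPM in CAG and 3.63 CPM in PGK libraries. The rows beside LRFN5 stood at 0.06 before and 0.05 after, with adjusted p of 0.69 and 0.83 in edgeR. The 10 nearest had a median of -0.09, and the 2 that were called lower stood at -0.24 and -0.47. Within 50 tested rows on each side, a distance chosen after the data were examined, 12 of 100 genes were called higher and 18 lower around FLRT2, and 8 higher and 23 lower around LRFN5. The lowest log2 fold change there was -0.93 around FLRT2 and -1.57 around LRFN5. FLRT2 and LRFN5 were chosen for their fall. Their distance below these rows follows in large part from that choice and is no separate result.

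ADGRL3 was not called higher, although most of the rows around it were. Of the 10 nearest tested genes 7 were called higher and 0 lower, with a median log2 fold change of 0.41, and 1 of them was at least 2-fold higher (1.86). Within 50 tested rows on each side, 64 of 100 genes were called higher and 5 lower, with a median of 0.42 and a middle 50% of 0.17 to 0.58. The -0.13 of ADGRL3 was 0.55 below that median. Single genes among these 100 ran from -4.41 to 2.21. The difference between ADGRL3 and its stretch was not tested. The gene directly before ADGRL3 stood at 0.16 and the gene directly after at -0.18, and neither passed the test (edgeR adjusted p = 0.73 and 0.22).

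FLRT3 had neighbours that moved both ways, with 3 called higher and 3 called lower of 10 and a median log2 fold change of -0.01. The gene in the row directly before FLRT3 rose by 0.65 on the log2 scale (edgeR adjusted p = 1.12e-07) and the one directly after fell by 0.18 (edgeR adjusted p = 0.035). A scarcer gene 3 tested rows after it stood at -1.70 (edgeR adjusted p = 0.0063), with a mean of 0.911 CPM in CAG and 2.80 CPM in PGK libraries. In RefSeq, FLRT3 lies inside MACROD2 on the opposite strand, FLRT1 inside MACROD1 and LRFN4 inside PC, each also on the opposite strand. Partial overlaps with the noncoding RNAs FLRT2-AS1 and ADGRL3-AS1 are listed for FLRT2 and ADGRL3, and 1 with a further coding gene for ADGRL3. That coding gene lies on the same strand as ADGRL3, so strand could not keep the reads of this pair apart. RefSeq lists only noncoding RNAs or pseudogenes inside ADGRL2, LRFN2 and LRFN5. Whether reads of the other pairs were kept apart by strand is not stated, so the counts of all these genes may include reads of the overlapping gene. The rows of MACROD1, MACROD2 and PC were not identified, because the identifiers are not paired with names.

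**Figure D4:**
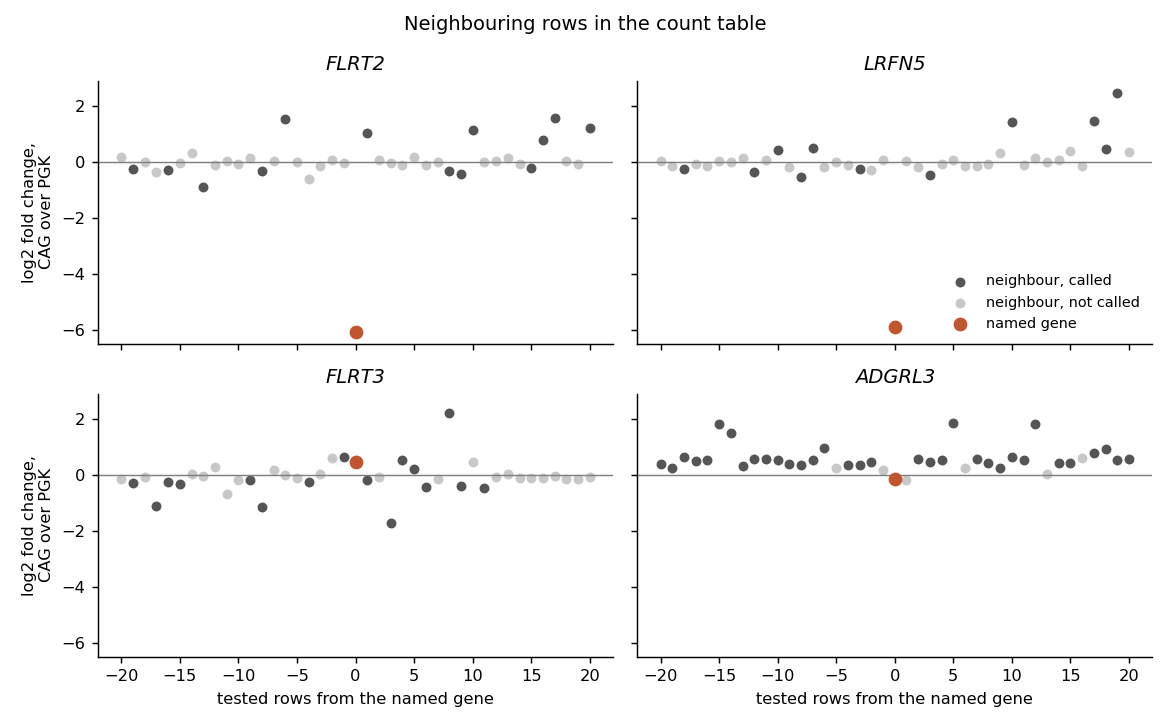
Log2 fold change, CAG over PGK (vertical axes), of the 20 tested rows on each side of FLRT2, LRFN5, FLRT3 and ADGRL3 in the count table (horizontal axes, tested rows from the named gene). Neighbours called by edgeR are dark and others light. FLRT2 and LRFN5, which were chosen for their fall, stand far below all their neighbours shown. ADGRL3 stands at -0.13 among rows that lie mostly above 0.

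Few of the nearest neighbours of LRFN2, LRFN4 and FLRT1 were called. Around LRFN2 and LRFN4, 1 of 10 neighbours was called in each case, lower in both, and the medians were -0.08 and -0.01. The rows beside LRFN2 stood at 0.06 and -0.45, and those beside LRFN4 at -0.14 and 0.53, none of them past the test. Around FLRT1, 1 of 10 was called lower, the gene directly before it, at -0.33 (edgeR adjusted p = 0.0022), and the one directly after stood at -0.16 (edgeR adjusted p = 0.072). Around ADGRL2, 3 were called higher and 1 lower, the last being the gene directly after it, at -0.26 (edgeR adjusted p = 0.036), while the one directly before stood at 0.16 (edgeR adjusted p = 0.086). Within 50 tested rows on each side of LRFN2, 6 of 100 genes were called higher and 36 lower, with a median of -0.13. Around ADGRL2 these were 42 and 17, with a median of 0.15. They were 6 and 8 around LRFN4, 11 and 13 around FLRT1, and 10 and 21 around FLRT3. Of all tested genes, 22.7% were called higher and 20.7% lower.

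Likeness to the leading genes was measured as the Euclidean distance of log2 CPM over the 5 libraries, where a smaller distance means a profile closer in level and pattern. The tested gene closest to FLRT2 was ENSG00000140937, at a distance of 1.16, with 1, 2 and 4 counts in the CAG libraries, against 111 and 73 in the PGK libraries. LRFN5 was the next closest to FLRT2, at 1.74, and then ENSG00000183783, at 1.78. The gene closest to LRFN5 was ENSG00000257591, at 1.50, with 0, 1 and 0 counts in the CAG libraries, against 74 and 41 in the PGK libraries. Its fitted log2 fold change of -7.15 was larger in size than those of FLRT2 and LRFN5, but it rests on 1 count in the CAG line and the gene lies under a mean of 5 CPM. For LRFN5, ENSG00000140937 came next at 1.72 and then FLRT2 at 1.74. The median distance over all tested genes was 10.1 from FLRT2 and 11.1 from LRFN5. Both leading genes were thus close to each other and to the same further gene. They had been chosen on these libraries as far lower in CAG than in PGK cells. Their closeness therefore follows in large part from the choice. The distance also compares levels between genes, whose counted lengths are not known.

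The spread between replicates differed among the genes and between the lines. The range of the 3 CAG libraries on the log2 scale was 0.05 for ADGRL3, 0.09 for ADGRL2 and 0.11 for FLRT3, below the median of 0.17 over all tested genes. It was 0.25 for LRFN4, 0.60 for LRFN2, 0.42 for FLRT2 and 1.34 for LRFN5, each with at most 31 counts in a CAG library. The PGK pair differed by 0.07 for FLRT2, against a median size of 0.16 over all tested genes, and by more than that median for the other 6 tested genes. The size of that difference was 0.17 for ADGRL2, 0.21 for ADGRL3 and LRFN2, 0.25 for LRFN5, 0.40 for LRFN4 and 0.49 for FLRT3.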

How the data were processed

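PRO-seq counts of 5 HEK293T libraries were used, 3 with the CAG and 2 with the PGK landing pad, grouped by sample title. The authors deposited raw counts for each Ensembl identifier. Per the submitters' processing notes, Bowtie2 2.5.1, HISAT2 2.2.1, cutadapt, fastp 0.23.2, featureCounts 2.0.3 and UMI-tools were run with hg19. Their roles, the annotation, the strand setting and the counted part of each gene: not given in the sources used here. The 18 rows with no identifier, at most 25 counts in a library, were left out.

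Genes were kept by edgeR's filterByExpr (minimum count 10, minimum total 15), which left 13400, and scaled by TMM. CAG was set over PGK by the quasi-likelihood F test of edgeR 4.0.16 (R 4.3.3) without covariates, adjusted by Benjamini-Hochberg over all tested genes and tried on simulated counts. Standard errors were taken as the absolute log2 fold change divided by the root of F. Log2 CPM used a prior count of 2. Intervals on counts are exact, at 95%, and cover counting error only. Replicates differed beyond sampling noise, with chi-square over its degrees of freedom at 1.63 to 1.83 between CAG replicates and at 4.40 between PGK replicates, which thus stood further apart.

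The 8 genes and the gene lists were chosen with earlier results of these data known. The names of the 8 genes come from the rule that defined them, since the identifiers are not paired with names in the tables used here (RefSeq, GRCh38.p14). Lists fixed by symbol were therefore not analysed here. They held binding partners, scaffold genes, other leucine-rich repeat and adhesion receptor genes and cell type markers. Further members of the LRFN and latrophilin families could likewise not be looked up by name. The identity of the cells was not checked by markers. Named genes were the 8, the tested rows directly beside each, neighbours called at 2-fold or more, and the genes closest to FLRT2 and LRFN5 in profile (of which 3 were taken for each). Promoter windows are RefSeq's.

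The alternatives tried were no filter, limma-trend (limma 3.58.1), DESeq2 1.42.0, its size factors in edgeR, upper-quartile factors, a block for the replicate number and leaving out each library. Thinning to 3712105 counts was added after the data were examined. Libraries with the same number deviated from their group means with correlations of 0.04 and -0.07 across genes, so replicate numbers were not taken to pair libraries.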

Additional observations from a re-analysis of the deposited data

Results flagged for a closer look

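The 18 rows with no gene identifier, which no comparison used, held 95 counts over the 5 libraries. They held 21, 15 and 21 counts in the CAG libraries, against 25 and 13 in the PGK libraries. With fewer than 4 libraries in each line, outlying libraries were not tested for.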

How the results depend on the processing

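The fall of FLRT2 and LRFN5 kept its direction under all 12 alternatives, but its size rests on few CAG counts. For FLRT2 the log2 fold change was -5.23 under limma-trend, -5.63 with all libraries thinned to the smallest total, and -6.29 to -5.88 with 1 library left out. For LRFN5 it was -4.78 under limma-trend and -7.15 to -5.27 with 1 library left out, with the largest size without CAG replicate 1. FLRT3 kept its direction throughout, at 0.19 to 0.69 with 1 library left out, and was not called only without PGK replicate 1 (0.19). ADGRL3 ranged from -0.24 to -0.025 with 1 library left out and was called only without PGK replicate 1 (-0.24). ADGRL2 changed sign with the replicate number as a block (-0.017) and with thinned libraries (-0.013), and ran from -0.084 to 0.098 with 1 library left out. LRFN2 ran from -0.27 to 0.051 and LRFN4 from -0.13 to 0.30 with 1 library left out, and LRFN4 stood at 0.50 with thinned libraries. None of these 3 genes was called under any of the 12 alternatives. The cause of these changes was not tested. With 1 PGK library left out, the spread of the remaining PGK library was taken to equal that among CAG libraries. The replicate block called 4667 genes in place of 5818, of which 4559 were called in the same direction without it, and it changed no call of the 5 tested genes that had not been chosen on this difference. Over all genes the alternatives called 4054 to 6024, and of the 80 neighbours 16 to 24 were called in place of 23. Alternatives for the lists fixed by symbol were not run.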
